A study of Mus musculus with 2 samples.

Results

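Synaptic vesicle and SNARE genes were followed across the cell types of the embryonic mouse forebrain, in 1 droplet library labelled Cyfip2 knockout and 1 labelled wild type. The set was defined by name and holds 8 of the 32285 genes counted: the synapsins Syn1 and Syn2, the vesicle membrane protein synaptophysin (Syp), the synaptotagmins Syt1 and Syt4, the SNARE proteins Vamp2 and Snap25, and the ATPase Nsf. All 8 were found in both libraries. Each library was made from a pool of 2 forebrains taken at embryonic day 18.5. The tissue was dissociated with papain and single cells were captured in 10x droplets. The targeted gene, Cyfip2, encodes a subunit of the WAVE actin regulatory complex. Strain, the deleted exons and the sex of the embryos are not given in the labels used here. With 1 library per genotype no test between genotypes was possible, so every difference between them is a difference between these libraries.

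Neurotransmitter is stored in synaptic vesicles and released when a vesicle fuses with the presynaptic membrane. Vamp2 on the vesicle pairs with Snap25 and a further SNARE on the plasma membrane, the resulting SNARE complex pulls the membranes together, and Nsf with its adaptors takes the spent complex apart. Syt1 senses calcium and times fusion, and synapsins hold vesicles in a reserve cluster. In the late embryonic forebrain most neurons are still migrating or growing axons, and parts of this machinery also serve the delivery of membrane to growing processes.

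Promoters are printed for 4 of the members that had a promoter window, with contrasting cell patterns described below. They are Syn1, restricted mainly to neurons, Syn2, high in intermediate progenitor-like cells, Syp, graded, and Nsf, present in every class. Each sequence runs from 250 bases before to 50 bases after the annotated start on the strand of the gene, from RefSeq on GRCm38.p6. Capitals mark the letters found in a search of both strands for the left part of the REST-binding element (TTCAGCACC), the cyclic AMP response element (TGACGTCA), the GC box (GGGCGG) and the CCAAT box (CCAAT).

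Syn1, chrX:20920869-20921168, minus strand: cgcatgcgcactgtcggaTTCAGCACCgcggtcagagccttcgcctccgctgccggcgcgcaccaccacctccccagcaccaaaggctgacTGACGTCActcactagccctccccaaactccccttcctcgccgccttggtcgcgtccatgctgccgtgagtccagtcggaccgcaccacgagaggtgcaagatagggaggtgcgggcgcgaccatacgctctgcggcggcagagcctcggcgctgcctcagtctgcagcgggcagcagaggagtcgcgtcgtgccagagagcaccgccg
Syn2, chr6:115134652-115134951, plus strand: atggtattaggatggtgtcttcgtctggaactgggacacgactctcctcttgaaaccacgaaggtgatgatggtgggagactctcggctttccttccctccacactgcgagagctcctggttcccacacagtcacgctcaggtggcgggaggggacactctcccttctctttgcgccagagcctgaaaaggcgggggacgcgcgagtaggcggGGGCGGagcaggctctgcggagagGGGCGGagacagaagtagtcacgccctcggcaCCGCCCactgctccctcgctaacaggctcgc
Syp, chrX:7638330-7638629, plus strand: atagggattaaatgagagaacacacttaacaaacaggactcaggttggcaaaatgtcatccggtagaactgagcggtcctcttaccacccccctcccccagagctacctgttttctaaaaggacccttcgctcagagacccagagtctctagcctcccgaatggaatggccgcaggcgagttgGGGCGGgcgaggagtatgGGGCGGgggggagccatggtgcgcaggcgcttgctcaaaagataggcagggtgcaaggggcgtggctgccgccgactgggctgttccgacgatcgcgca
Nsf, chr11:103954007-103954306, minus strand: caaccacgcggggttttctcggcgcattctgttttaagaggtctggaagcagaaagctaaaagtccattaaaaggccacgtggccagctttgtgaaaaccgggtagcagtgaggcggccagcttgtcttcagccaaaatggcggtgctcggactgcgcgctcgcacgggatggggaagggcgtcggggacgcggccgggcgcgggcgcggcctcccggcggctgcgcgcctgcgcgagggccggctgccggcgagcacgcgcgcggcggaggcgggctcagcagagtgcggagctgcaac

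The Syn1 window holds the left REST letters and a cyclic AMP response element once each. The same REST letters were found in 122 of 32851 promoter windows of that length (0.371%) and the response element in 588 (1.79%). The Syn2 window holds 3 GC boxes and the Syp window 2, a motif present in 35.7% of all windows. None of the 4 motifs is in the Nsf window. All 4 windows are richer in G and C than the median window: 68.3% for Syn1, 62.3% for Syn2, 59.0% for Syp and 67.7% for Nsf, against a median of 52.7%. CpG pairs number 33 for Syn1, 21 for Syn2, 18 for Syp and 38 for Nsf, against a median of 7. A second annotated Syn2 start, at chr6:115238744-115239043, lies in a window with 51.0% G and C and 5 CpG pairs. A letter match is a description of the window and says nothing about binding.

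On mm10 the members lie on 6 chromosomes, and Syn1 (chrX:20860511-20921004) and Syp (chrX:7638471-7653256) are both X-linked. Araf and Timp1, which overlap Syn1 on the opposite strand, and Timp4, which overlaps Syn2 on the opposite strand, were counted separately. So were Gm14703 with Syp and Gm26658 with Syt4, also on opposite strands. Gm17482 overlaps Syn2 and Gm5136 overlaps Syt1 on the same strand. Snap25 (chr2:136713453-136782428), Vamp2 (chr11:69088490-69092384) and Nsf (chr11:103821782-103954056) overlap no other counted gene.

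After removal of doublets 11533 cells of the knockout-labelled library and 8426 of the wild-type library were kept, with medians of 7787 and 9567 UMIs (unique molecules counted). The libraries shared 32 cell barcodes. Cells were clustered without the 8 members or 57 related genes, and clusters are called by marker genes, with "-like" for each class. Levels are in CPM, the UMIs of a gene scaled to the same total for each class and library, and every interval is at the 95% level and reflects counting error alone. Cyfip2 stood at 84.4 CPM (82.7 to 86.1) in the knockout-labelled cells and 84.9 CPM (83.0 to 86.7) in the wild-type cells. In progenitor-like cells it was higher in the knockout-labelled library, at 66.3 against 40.1 CPM. The level of the targeted gene thus did not follow the label, and it cannot check the label if the counted part of the transcript lies outside the deletion, so the text speaks of the knockout-labelled library. Xist and Y-linked transcripts were present in both libraries (Xist 1676 and 1567 CPM, Y-linked genes together 121 and 201 CPM) and the sex of the embryos as a source of differences in Syn1 and Syp was not tested.

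Both synapsins coat the cytosolic face of vesicles, and their levels followed different cell patterns. Among the 15 classes with at least 50 cells in each library, Syn1 was highest in deep-layer excitatory neuron-like cells, at 50.0 CPM in the knockout-labelled and 48.8 CPM in the wild-type library. It was 44.9 and 42.4 CPM in upper-layer excitatory neuron-like cells, 29.5 and 33.8 CPM in migrating excitatory neuron-like cells, and 11.5 and 8.13 CPM in intermediate progenitor-like cells. In radial glia-like cells, the stem cells of the cortex, it was 2.67 and 2.98 CPM, so in both libraries Syn1 was lowest in radial glia-like cells, then intermediate progenitor-like, then migrating, and highest in both layer classes, whose intervals overlapped in each library.

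Syn2, like Syn1, was low in radial glia-like cells, at 7.05 CPM in the knockout-labelled and 5.79 CPM in the wild-type library, but it was highest of this series in intermediate progenitor-like cells and lower in the neurons. It was 62.5 CPM in the knockout-labelled and 63.0 CPM in the wild-type intermediate progenitor-like cells, 20.3 and 27.2 CPM in migrating excitatory neuron-like cells, and 4.48 and 4.08 CPM in deep-layer excitatory neuron-like cells. Upper-layer excitatory neuron-like cells had 3.64 and 5.52 CPM. Among inhibitory cells Syn2 was high in medial eminence neuron-like cells, the class of future cortical interneurons, at 68.1 and 65.7 CPM, and low in striatal neuron-like cells, at 0.155 and 0.168 of the medial eminence level. Its level in intermediate progenitor-like cells overlapped that in medial eminence neuron-like cells within counting error in both libraries. Cajal-Retzius-like cells, early-born neurons that secrete reelin, held the highest Syn2 level of the named classes, at 341 CPM in 59 knockout-labelled cells and 258 CPM in 38 wild-type cells.

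Syp, an abundant membrane protein of the vesicle, was more even among excitatory neuron-like cells. It was 87.2 and 87.7 CPM in deep-layer, 85.4 and 87.0 CPM in migrating and 75.5 and 75.0 CPM in upper-layer excitatory neuron-like cells. It was also 91.4 and 89.7 CPM in cluster 11, an excitatory cluster led by Tfap2d, Thsd7a and Tbr1, and the intervals of the libraries overlapped in each of these classes. Intermediate progenitor-like cells had 48.2 and 49.0 CPM, and striatal neuron-like cells 67.6 and 58.0 CPM. Cluster 3, a GABAergic cluster described below, had 88.6 and 68.9 CPM. The named eminence classes were near the intermediate progenitor level. Medial eminence neuron-like cells had 47.1 and 42.7 CPM, and caudal or lateral eminence neuron-like cells 43.0 and 49.8 CPM.

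Syt1, the fast calcium sensor of release, was high in the inhibitory lineage of the medial eminence. It was 323 CPM in the knockout-labelled and 338 CPM in the wild-type medial eminence neuron-like cells, and 309 and 383 CPM in cluster 3, a GABAergic cluster led by Sst, Lhx8, Zic1 and Nkx2-1. Upper-layer excitatory neuron-like cells had 212 and 186 CPM, deep-layer ones 166 and 141 CPM, and migrating ones 65.5 and 57.4 CPM. Intermediate progenitor-like cells were at 7.09 and 4.25 CPM.

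Syt4, a synaptotagmin found on neuropeptide-type vesicles and in dendrites of mouse neurons, had a contrasting pattern. Its highest level was in cluster 13, an excitatory cluster led by Ntf3 and Cbln2 in which Syt4 was itself among the 10 leading genes, at 1032 CPM in the knockout-labelled and 1084 CPM in the wild-type library. Upper-layer excitatory neuron-like cells had 528 and 574 CPM, deep-layer ones 476 and 414 CPM, and migrating ones 181 and 218 CPM. The deep-layer value pools 2 unlike clusters: the one led by Nefl and Fezf2 had 594 and 519 CPM, and the one led by Hs3st4 75.0 and 57.0 CPM. Medial eminence neuron-like cells, where Syt1 was high, had 52.1 and 46.5 CPM of Syt4. From the highest to the lowest of the 15 classes, Syt4 spanned 91.2-fold in the knockout-labelled and 193-fold in the wild-type library, the lowest being microglia or macrophage-like cells with 21 and 6 UMIs.

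Snap25, the plasma membrane SNARE, peaked in deep-layer excitatory neuron-like cells at 250 CPM in the knockout-labelled and 275 CPM in the wild-type library. Medial eminence neuron-like cells followed with 127 and 149 CPM, and migrating excitatory neuron-like cells with 105 and 115 CPM. Upper-layer excitatory neuron-like cells, with 72.1 and 84.9 CPM, stood below the migrating cells in both libraries. Intermediate progenitor-like cells had 42.5 and 38.8 CPM.

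Vamp2, the vesicle SNARE, varied less. Cluster 3 had 160 and 156 CPM, deep-layer excitatory neuron-like cells 142 and 143 CPM, migrating ones 114 and 114 CPM, and intermediate progenitor-like cells 67.2 and 77.9 CPM. Radial glia-like cells still had 45.0 and 48.8 CPM, and its span over the 15 classes was 5.93-fold in the knockout-labelled and 5.05-fold in the wild-type library.

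Nsf, which recycles SNARE complexes in every cell and not only in neurons, had a span of 5.91-fold in the knockout-labelled and 3.37-fold in the wild-type library. Among the 15 classes it was highest in cluster 3, at 72.8 and 74.1 CPM, and it was 38.1 and 38.9 CPM in upper-layer excitatory neuron-like cells. Microglia or macrophage-like cells had 32.3 and 28.0 CPM of Nsf and 27.0 and 30.8 CPM of Vamp2. The other 6 members were at most 11.3 CPM in that class in the knockout-labelled and 5.60 CPM in the wild-type library.

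**Figure D1:**
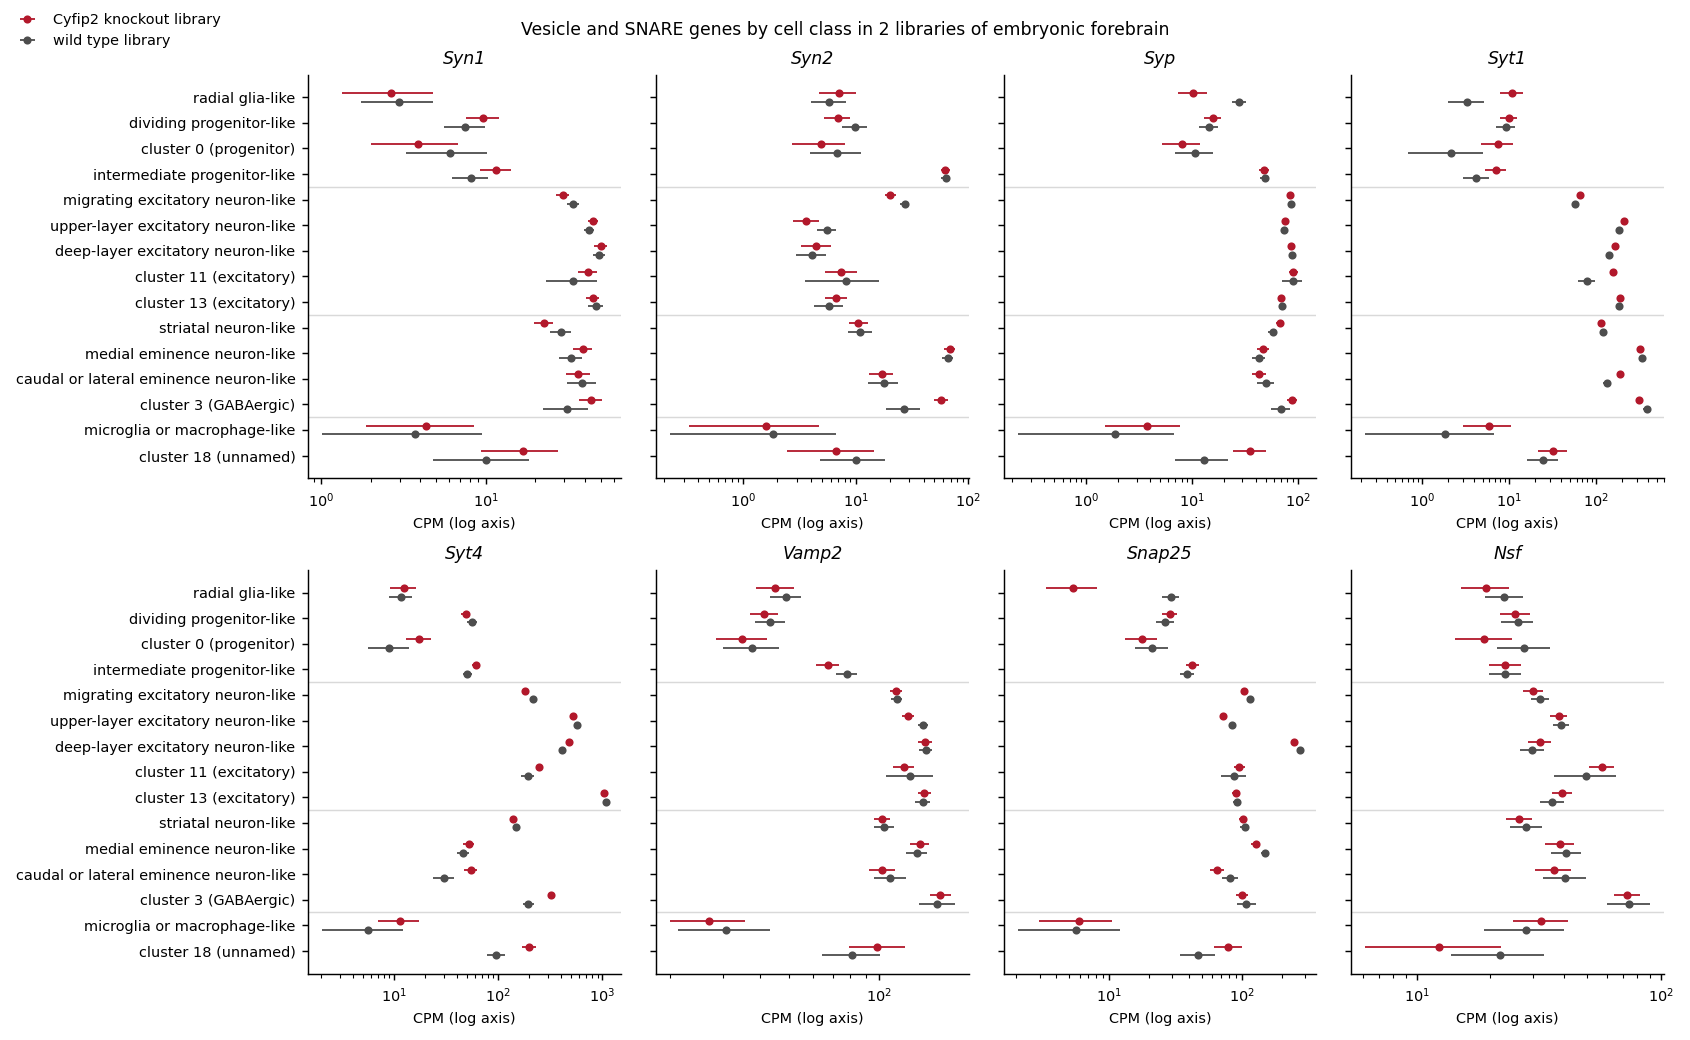
CPM (log axis) of each member in the 15 classes with 50 or more cells per library, with the knockout-labelled library (red) above the wild-type library (grey) in each class; bars are 95% counting intervals and grey lines part progenitors, excitatory neurons, GABAergic neurons and other cells. In the knockout-labelled library Syn2 is 62.5 CPM in intermediate progenitor-like cells and 4.48 CPM in deep-layer excitatory neuron-like cells, where Syn1 is the highest of the 15 classes.

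Excitatory and GABAergic neuron-like cells together, called neurons here, were set against progenitor-like cells within each library. In both libraries 6 of the 8 members were at least 2-fold higher in neurons, against 12.6% of 7546 measured genes. Syt1 had the largest ratio, 19.2-fold in the knockout-labelled and 29.0-fold in the wild-type library. Syt4 followed, at 395 CPM in neurons and 42.4 CPM in progenitor-like cells of the knockout-labelled library and 422 and 38.2 CPM in the wild-type library, then Syn1 with 4.68-fold and 6.14-fold. Snap25 was 4.07-fold and 4.18-fold higher in neurons, Syp 3.07-fold and 2.53-fold, and Vamp2 2.52-fold and 2.31-fold. The order of the 8 ratios was the same in both libraries.

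Nsf and Syn2 fell outside the 2-fold rule. Nsf was 1.65-fold higher in neurons in the knockout-labelled and 1.46-fold in the wild-type library. Syn2 was lower in neurons, with ratios of 0.634 and 0.585, since progenitor-like cells held 25.2 and 27.2 CPM and neurons 15.9 and 15.9 CPM. Among the progenitor classes only intermediate progenitor-like cells, at 62.5 and 63.0 CPM, were above neurons. Radial glia-like cells, dividing progenitor-like cells and the progenitor cluster 0 held at most 7.05 CPM in the knockout-labelled and 9.85 CPM in the wild-type library. The other genes of the machinery mostly ran with the first group: 29 of the 41 measured among 57 vesicle, SNARE, active zone and endocytosis genes were at least 2-fold higher in neurons in both libraries, and 1, Vamp3, was at least 2-fold lower.

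Relatives and partners of the SNARE members did not all run one way. Vamp3, a SNARE of general membrane traffic, was lower in neurons at ratios of 0.270 in the knockout-labelled and 0.264 in the wild-type library. Snap23, the general form of Snap25, was under the minimum level for a measured gene, with ratios of 0.367 and 0.271. Vamp7 was near even at 1.11 and 1.05, and Snap29 had ratios of 1.32 and 1.27. Stx1a, a plasma membrane partner of Vamp2, was higher in neurons by 3.69-fold and 4.59-fold. Of the adaptors of Nsf, Napa was even between the groups at 1.04 and 1.09, while Napb was higher in neurons by 2.61-fold and 2.51-fold.

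**Figure D2:**
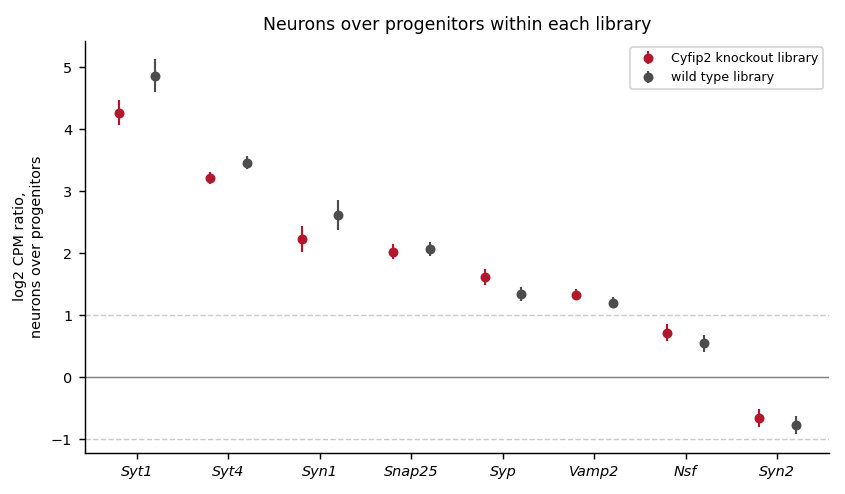
Log2 ratio of CPM in neurons over progenitor-like cells for each member, in the knockout-labelled library (red, left) and the wild-type library (grey, right), with 95% counting intervals; dashed lines mark 2-fold. Syt1 to Vamp2 lie above the upper line in both libraries, and Syn2 lies below 0.

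Within neurons, excitatory over GABAergic ratios were near 1 for most members. Only 1 of the 8, Syt4, was at least 2-fold higher in excitatory neuron-like cells in both libraries, against 5.06% of 7055 measured genes, at 3.78-fold in the knockout-labelled and 5.11-fold in the wild-type library. Syn2 was lower in excitatory neuron-like cells, at ratios of 0.284 and 0.378, and Syt1 had ratios of 0.747 and 0.631. Snap25 (1.15 and 1.15), Vamp2 (1.07 and 1.11) and Nsf (0.963 and 0.905) were close to even.

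In deep-layer over migrating excitatory neuron-like cells, classes that differ in layer as well as in stage, 2 of the 8 members were at least 2-fold higher in both libraries, against 5.38% of 7099 measured genes. These were Syt1, by 2.54-fold in the knockout-labelled and 2.46-fold in the wild-type library, and Snap25, by 2.38-fold and 2.40-fold. Snap25 was at 105 and 115 CPM in the migrating class. It was at 201 and 229 CPM, under 2-fold higher, in the deep-layer cluster led by Nefl and Fezf2. In the one led by Hs3st4 it was at 415 and 436 CPM. Syt1, at 65.5 and 57.4 CPM in the migrating class, was at 179 and 149 CPM and 123.5 and 114.8 CPM in these clusters. Syt4 was 2.63-fold and 1.90-fold higher in the deep-layer class as a whole. In the deep-layer cluster led by Hs3st4, however, Syt4 was at 75.0 and 57.0 CPM, below the migrating class at 181 and 218 CPM. Syp was even at 1.02 and 1.01. Syn2 was lower in the deep-layer cells, at ratios of 0.221 and 0.150.

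A cell rarely showed all members at this depth. A median of 3 of the 8 members had a UMI in knockout-labelled excitatory neuron-like cells and 4 in wild-type ones, whose median depths were 8753 and 10748.5 UMIs. After thinning every cell to 1000 UMIs the mean was 0.753 and 0.764 members. At that equal depth Syt4 was detected in 24.7% of knockout-labelled and 25.5% of wild-type excitatory neuron-like cells, Syt1 in 12.4% and 10.8%, Snap25 in 10.3% and 12.2%, and Syn2 in 1.24% and 1.48%. Before thinning, the shares for Syt4 were 64.3% and 69.1% and for Snap25 53.4% and 60.4%. In microglia or macrophage-like cells, with median depths of 12641 and 15681 UMIs and as a class not known to make synaptic vesicles, the thinned shares were 0.709% and 1.49% for Syt4 and for Snap25.

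The levels were then set between genotypes within 3 groups: excitatory neuron-like cells (5494 knockout-labelled and 4378 wild-type), GABAergic neuron-like cells (3569 and 2064) and progenitor-like cells (1895 and 1628). A gene counts as measured when it reaches 20 CPM in 1 of the libraries and 100 UMIs over both, and it is called higher or lower where the counting interval of the log2 ratio, knockout-labelled over wild type, leaves out 0. This rule rests on counting error and sets no minimum size, and it is not a test. No member reached 1.5-fold with such an interval in any of the 3 groups, a size at which 0.074% of measured genes were lower and 0.163% higher in excitatory neuron-like cells, 0.132% lower and 0.497% higher in GABAergic neuron-like cells, and 0.188% in each direction in progenitor-like cells.

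In excitatory neuron-like cells 3 of the 7 measured members were lower in the knockout-labelled library, against 23.0% of 6758 measured genes, and 1 was higher, against 14.7%. The median log2 ratio of the 7 was -0.01, the same as that of all measured genes. Snap25 was at 117 CPM in the knockout-labelled and 133 CPM in the wild-type library, a log2 ratio of -0.19 (-0.23 to -0.14). Syt1 was at 155 and 137 CPM, a log2 ratio of 0.18 (0.14 to 0.23). Snap25 was thus lower and Syt1 higher in the knockout-labelled library, by amounts far under the span of either gene between neuron classes.

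Vamp2, at 127 and 132 CPM, had a log2 ratio of -0.06 (-0.10 to -0.01), and Syt4, at 500 and 509 CPM, one of -0.03 (-0.05 to -0.00). Both calls were lost, leaving 1 lower and 2 higher members, under median-of-ratios scaling and with a total that leaves out mitochondrial, haemoglobin and ribosomal protein genes. Syn1 (41.3 and 41.6 CPM), Syp (80.4 and 80.8 CPM) and Nsf (36.8 and 34.7 CPM) had intervals that include 0. Syn2, at 9.28 and 11.8 CPM, was below the minimum level in the group as a whole. In migrating excitatory neuron-like cells alone it was measured, at 20.3 and 27.2 CPM, a log2 ratio of -0.43 (-0.64 to -0.22). The migrating clusters differed: the log2 ratio was -0.65 in cluster 5, -0.66 in cluster 6 and 0.35 (-0.08 to 0.79) in cluster 7.

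**Figure D3:**
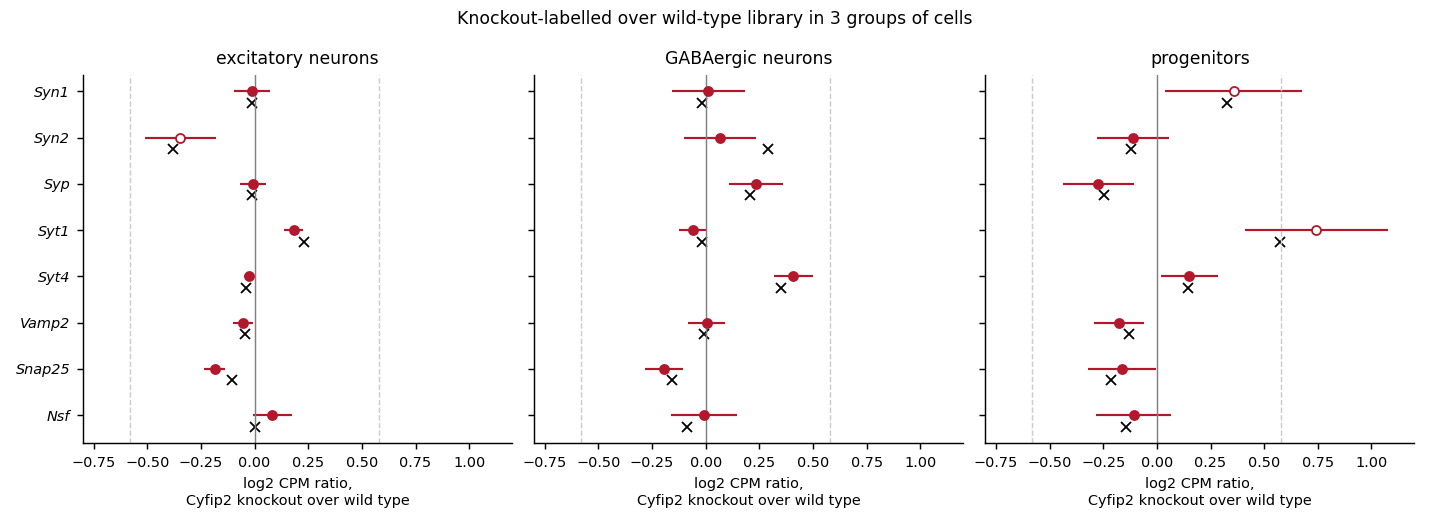
Log2 CPM ratio, knockout-labelled over wild-type library, of each member in 3 groups of cells, with 95% counting intervals; filled points are measured, open points are below 20 CPM, crosses give the ratio with equal cluster weights, and dashed lines mark 1.5-fold. Filled points all lie between the dashed lines, Snap25 is below 0 in all 3 panels and Syt4 is at 0.41 in GABAergic neuron-like cells.

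The differences in Snap25 and Syt1 recurred over the excitatory clusters. With equal cluster weights, where every cluster counts alike in either library, their log2 ratios were -0.11 and 0.23. Of 10 excitatory clusters Snap25 was lower in 4 and higher in 0, ranging from -0.37 to 0.13, and Syt1 was higher in 7 and lower in 0, ranging from 0.06 to 0.99. In deep-layer excitatory neuron-like cells Snap25 was at 250 and 275 CPM (log2 ratio -0.14, -0.22 to -0.07) and Syt1 at 166 and 141 CPM (0.24, 0.14 to 0.34). The clusters of 1 library share that library's depth, free RNA and embryos, so they are not replicates.

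Library depth and free RNA differed between the libraries as well. In 5 bins of UMIs per cell the log2 ratio of Snap25 in excitatory neuron-like cells lay between -0.27 and -0.14, and that of Syt1 between 0.21 and 0.31. In the lowest bin, 1000 to 4000 UMIs, both intervals include 0 (-0.40 to 0.06 for Snap25 and -0.06 to 0.51 for Syt1), and depth still varies within each bin. In barcodes with under 100 UMIs, which hold free RNA, Snap25 was at 84.9 CPM in the knockout-labelled and 108 CPM in the wild-type library, a log2 ratio of -0.34 (-0.57 to -0.12). Syt1 in the same barcodes was at 85.7 and 79.1 CPM, with an interval that includes 0. These barcodes held 2.47% of the UMIs of the knockout-labelled and 2.62% of those of the wild-type library. After subtraction of that share the Snap25 and Syt1 ratios in excitatory neuron-like cells moved by less than their counting error. A subtraction this small could hardly move them. The free RNA within cells was not estimated, and its part in either ratio was not tested.

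Syt4 had no single direction across excitatory clusters: it was lower in 6 of the 10 and higher in 4. It was at 181 CPM in knockout-labelled and 218 CPM in wild-type migrating cells, a log2 ratio of -0.27 (-0.34 to -0.20), and at 528 and 574 CPM in upper-layer cells, a log2 ratio of -0.12 (-0.16 to -0.08). In deep-layer cells it was at 476 and 414 CPM, a log2 ratio of 0.20 (0.14 to 0.26). The near-zero ratio of the whole group averages these. Without cluster 11, which held 654 knockout-labelled and 130 wild-type cells, the group's Syt4 was 524 and 514 CPM and the log2 ratio turned to 0.03 (0.00 to 0.05). Within cluster 11 Syt4 was itself higher in the knockout-labelled library, at 246 and 193 CPM (0.35, 0.13 to 0.58), both below the level of the whole group. The level of Syt4 also went with cell depth: it was 208 and 219 CPM in cells of 1000 to 4000 UMIs and 777 and 686 CPM in cells of at least 20000.

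**Figure D4:**
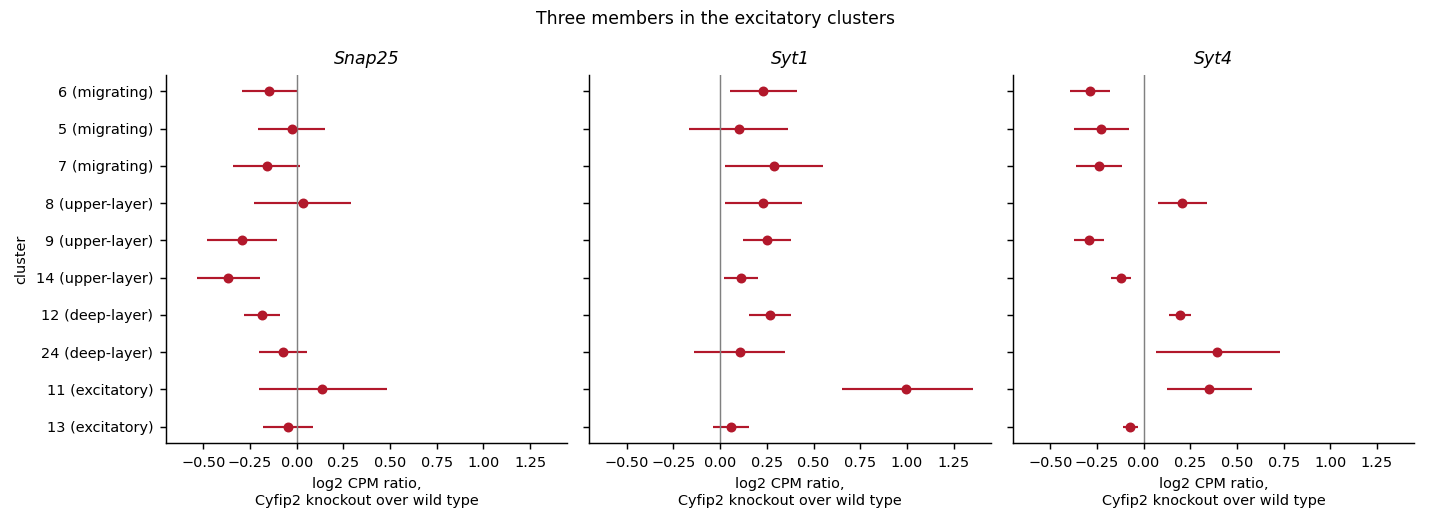
Log2 CPM ratio, knockout-labelled over wild-type library, of Snap25, Syt1 and Syt4 in each of the 10 excitatory clusters, with 95% counting intervals. Syt1 is above 0 in every cluster, most in cluster 11 at 0.99, Snap25 is below 0 in 8 of them, and Syt4 is lower in the migrating clusters and higher in the deep-layer ones.

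In GABAergic neuron-like cells all 8 members were measured. In the knockout-labelled library 1 was lower, against 15.2% of 6843 measured genes, and 2 were higher, against 11.3%. Snap25 was the lower one, at 101 CPM in the knockout-labelled and 116 CPM in the wild-type library, a log2 ratio of -0.19 (-0.28 to -0.10), and it was lower in 2 of the 7 clusters. Syt4 was higher at 132 and 99.6 CPM, a log2 ratio of 0.41 (0.32 to 0.50), and Syp at 62.0 and 52.7 CPM, a log2 ratio of 0.23 (0.11 to 0.36). Syp had no single direction across the 7 clusters: it was higher in 2 and lower in 1, ranging from -0.49 to 0.56. Syn1 (32.1 and 31.8 CPM), Syn2 (32.6 and 31.2 CPM), Syt1 (208 and 217 CPM), Vamp2 (119 and 119 CPM) and Nsf (38.2 and 38.3 CPM) had intervals that include 0.

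The size of the Syt4 ratio of this group moved with cluster 3, which made up 3.61% of knockout-labelled and 1.91% of wild-type cells. There Syt4 was at 319 and 194 CPM, a log2 ratio of 0.72 (0.52 to 0.92). Without cluster 3 the group's Syt4 was 97.0 and 90.3 CPM and the log2 ratio 0.10 (-0.00 to 0.21), which includes 0, while Syp stayed higher at 0.16 (0.02 to 0.29) and Snap25 stayed lower at -0.20 (-0.30 to -0.10). With equal cluster weights Syt4 was at 0.35, and of the 7 GABAergic clusters it was higher in 3 and lower in 0, ranging from -0.01 to 0.95.

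Caudal or lateral eminence neuron-like cells also differed in Syt4, at 54.4 CPM in the knockout-labelled and 30.0 CPM in the wild-type library (log2 ratio 0.86, 0.47 to 1.26). It was the only member past 1.5-fold in that class, against 1.36% of 6919 measured genes in that direction. The larger of its 2 clusters, with 601 and 309 cells, had 62.9 and 32.6 CPM, and the smaller, with 179 and 133 cells, 30.5 and 24.2 CPM, with an interval that includes 0. Syt1 was higher in the class as well, at 190 and 135 CPM (0.49, 0.31 to 0.68), and Snap25 lower, at 65.2 and 81.8 CPM (-0.33, -0.60 to -0.05).

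Cluster 3 also stood apart for Syn2, at 57.5 CPM (211 UMIs) in the knockout-labelled and 26.7 CPM (36 UMIs) in the wild-type library, a log2 ratio of 1.11 (0.59 to 1.66). Syn2 and Syt4 were both past 1.5-fold there, against 2.21% of 6892 measured genes in that direction. Syt1 was lower, at 309 and 383 CPM (-0.31, -0.46 to -0.15). In a finer clustering the larger fraction of cluster 3, with 256 knockout-labelled and 96 wild-type cells, had 75.3 and 33.4 CPM of Syn2, 442 and 294 CPM of Syt4, and 421 and 581 CPM of Syt1, all with intervals that leave out 0. The smaller fraction, with 137 and 48 cells, had 33.5 and 20.5 CPM of Syn2, with an interval that includes 0, and 157 and 68.9 CPM of Syt4. Syt1 was not lower in that fraction, at 153 and 125 CPM (0.30, -0.10 to 0.71).

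Cluster 11 held the largest difference in Syt1. It was at 156 CPM (791 UMIs) in the knockout-labelled and 78.3 CPM (76 UMIs) in the wild-type library, a log2 ratio of 0.99 (0.65 to 1.35), and was the only member past 1.5-fold there, against 3.18% of 7054 measured genes in that direction. In the finer clustering, with 633 and 123 cells, Syt1 was at 154 and 81.4 CPM. The wild-type library supplied few cells of this cluster, and whether its cells are the same in both libraries was not tested.

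In progenitor-like cells 3 of the 6 measured members were lower in the knockout-labelled library, against 20.6% of 6904 measured genes, and 1 was higher, against 10.4%. Syp was at 24.5 CPM in the knockout-labelled and 29.6 CPM in the wild-type library (log2 ratio -0.27, -0.44 to -0.11), Vamp2 at 49.7 and 56.1 CPM (-0.18, -0.29 to -0.06) and Snap25 at 27.6 and 30.9 CPM (-0.16, -0.32 to -0.01). Syt4 was higher, at 42.4 and 38.2 CPM (0.15, 0.02 to 0.29). With all cells kept, Vamp2 was below 0 in each of the 5 progenitor clusters, from -0.21 to -0.05, with 1 interval that leaves out 0. Syn2 (25.2 and 27.2 CPM) and Nsf (22.5 and 24.3 CPM) had intervals that include 0, and Syn1 and Syt1 were below the minimum level.

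The lower Snap25 and Syp of progenitor-like cells came with a few wild-type cells. In radial glia-like cells Snap25 was at 5.35 CPM in the knockout-labelled and 29.1 CPM in the wild-type library (log2 ratio -2.45, -3.16 to -1.80), and Syp at 10.2 and 28.1 CPM (-1.46, -1.99 to -0.96). Both were past 1.5-fold, against 1.21% of 7164 measured genes in that direction. No knockout-labelled and 12 wild-type cells of this class carried at least 3 UMIs of Tph1, an enzyme of serotonin synthesis known from the pineal gland. These 12 cells held 88.6% of the Snap25 UMIs of the wild-type class and 51.9% of its Syp UMIs, at 530 CPM (448 to 623) of Snap25 and 299 CPM of Syp.

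The same 12 cells had 3028 CPM of Tph1, 620 CPM of Crx and 350 CPM of Sag, genes known from photoreceptors and the pineal gland, and no UMI of the radial glia genes Hes5 and Slc1a3, which allows up to 13.3 CPM. Their Vamp2 was 133 CPM, while Syt1 had 5 UMIs. They were picked out after their values had been seen and are given no name. Without them Snap25 in radial glia-like cells was 5.35 and 3.51 CPM (log2 ratio 0.61, -0.34 to 1.57) and Syp 10.2 and 14.2 CPM (-0.48, -1.06 to 0.08). Vamp2 in that class was then no longer below 0, at 45.0 and 44.5 CPM (0.02, -0.27 to 0.30). In progenitor-like cells without Tph1 cells Snap25 was 27.6 and 24.7 CPM (0.16, -0.01 to 0.33) and Syp 24.5 and 26.3 CPM (-0.10, -0.27 to 0.07), so neither remained lower, whereas Vamp2 did at -0.15 (-0.27 to -0.03).

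**Figure D5:**
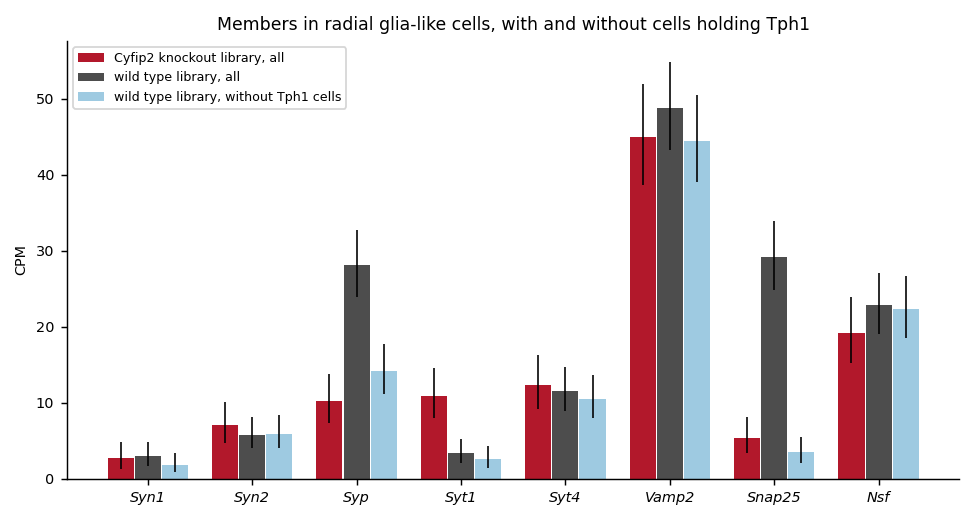
CPM of each member in radial glia-like cells of the knockout-labelled library (red), the wild-type library (grey) and the wild-type library without the 12 cells with at least 3 Tph1 UMIs (light blue), with 95% counting intervals. Snap25 is 29.1 CPM in the wild-type library with these cells and 3.51 CPM without them, next to 5.35 CPM in the knockout-labelled library.

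Syt1 in radial glia-like cells was the reverse case, at 10.9 CPM (45 UMIs) in the knockout-labelled and 3.34 CPM (19 UMIs) in the wild-type library, below the minimum level. It was 2.58 CPM in the wild-type class without the Tph1 cells. Cyfip2 itself was 55.7 and 21.8 CPM in this class, and free RNA of neurons as a source of either was not tested. In cluster 18, unnamed and shallow at medians of 2305 and 2349 UMIs, Syt4 was at 199 CPM (178 UMIs) in the knockout-labelled and 95.9 CPM (96 UMIs) in the wild-type library and Snap25 at 79.4 and 46.9 CPM, both past 1.5-fold, against 12.9% of 2510 measured genes in that direction.

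The rest of the release machinery gave the setting for these differences. In excitatory neuron-like cells 38 of the 57 related genes were measured, of which 15 were lower, against 23.0% of all measured genes, and 1 was higher, against 14.7%, in the knockout-labelled library, with a median log2 ratio of -0.04 against -0.01 for all measured genes. By role, 3 of 6 measured SNAREs, 4 of 8 SNARE regulators, 3 of 6 endocytosis genes, 2 of 3 synaptotagmins, 1 of 3 Rab3 proteins and effectors, 1 of 6 active zone genes and 1 of 6 vesicle membrane proteins were lower. The lowest log2 ratio of these was that of Amph, which bends membrane in endocytosis, at 19.4 CPM in the knockout-labelled and 21.8 CPM in the wild-type library (-0.17, -0.29 to -0.05). Vamp7 (59.2 and 65.4 CPM) and Rims2 (42.4 and 46.8 CPM) had log2 ratios of -0.14. With equal cluster weights the order changed, to -0.24 for Rims2, -0.21 for Cplx2, a clamp of the SNARE complex, -0.15 for Amph and -0.06 for Vamp7. Pclo, a scaffold of the release site, was the higher one at 91.4 and 87.5 CPM (0.06, 0.01 to 0.12).

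Partners of the members were within that range. Napa was at 61.8 CPM in the knockout-labelled and 67.2 CPM in the wild-type library (-0.12, -0.19 to -0.05) and Cplx2 at 151 and 163 CPM (-0.11, -0.16 to -0.07). Stx1a (28.0 and 28.3 CPM), Cplx1 (48.6 and 50.3 CPM) and Rab3a (342 and 347 CPM) had intervals that include 0. Snap25 at -0.19 was therefore lower beside Napa and Cplx2, each by less than 1.5-fold.

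In GABAergic neuron-like cells 40 of the related genes were measured, 5 lower, against 15.2% of all measured genes, and 6 higher, against 11.3%, which is near those shares in both directions. Their median was 0.01 against -0.01 for all measured genes. Rph3a, an effector of Rab3, was lower at 68.7 CPM in the knockout-labelled and 96.6 CPM in the wild-type library (-0.49, -0.59 to -0.39), and at -0.27 with equal cluster weights. Amph was at 32.3 and 40.9 CPM (-0.34), and at -0.10 with equal cluster weights. Rab3b was higher at 23.6 and 17.4 CPM (0.44, 0.23 to 0.66), with Sypl (21.8 and 18.7 CPM, 0.22) and Erc1 (76.7 and 68.3 CPM, 0.17). In progenitor-like cells 18 were measured, 4 lower, against 20.6% of all measured genes, and 2 higher, against 10.4%, again near those shares, with a median of -0.04 against -0.03. Sypl (26.0 and 31.3 CPM, -0.27), Cplx2 (113 and 135 CPM, -0.26) and Vamp7 (50.6 and 58.6 CPM, -0.21) were the lowest, of which Sypl was at -0.09 with equal cluster weights, and Pclo (20.3 and 16.9 CPM, 0.27) and Synj1 (24.6 and 21.7 CPM, 0.18) the higher ones.

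Across the 23 clusters with at least 50 cells in each library the members mostly varied together, with Syn2 apart. These correlations of log2 CPM describe clusters of the same libraries that share neurons against progenitors as their main contrast. Syn1 with Vamp2 had a Pearson r of 0.891 in the knockout-labelled and 0.876 in the wild-type library, and Syn1 with Syt1 0.884 and 0.885. Syt1 with Syt4 was lower at 0.502 and 0.509. Syn2 with the other members lay between -0.13 and 0.20 in the knockout-labelled and between -0.06 and 0.09 in the wild-type library.

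Outside the set, the genes most like each member over these clusters were found among 6721 genes by the wild-type correlation. For Syn1 they included Rusc1 (0.909 in the knockout-labelled and 0.964 in the wild-type library) and the kinesin gene Kif5a (0.917 and 0.963). For Snap25 they were Dctn1 (0.857 and 0.940), Wasf1, a WAVE complex gene (0.887 and 0.925), and Tbc1d24 (0.825 and 0.924). Vamp2 was nearest to Pnck, Tubb2b and Snap47, Syp to Cxadr, Clasp2 and Dmxl2, Syt1 to Csrnp3, Tspyl5 and Dnm3, and Syt4 to Tmem158, Ap2a1 and Slc1a1. Syn2 had no close match, with Rybp first at 0.499 and 0.692, and Nsf was nearest to Dvl1 at 0.777 and 0.807.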

How the data were processed

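The authors' deposited tables hold whole-number UMI counts of every gene in every barcode, before any selection of cells. Cell Ranger 4 made them, per the file headers, on mm10, per the submitters' processing notes. Which annotation was used for counting is not given in the sources used here.

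Cells were barcodes with 1000 or more UMIs, 500 or more genes and no more than 10% mitochondrial UMIs, which gave 12855 knockout-labelled and 9086 wild-type cells. Doublets were scored with Scrublet in scanpy 1.11.5 within each library, and the highest scores were left out at 0.8% per 1000 cells (1322, or 10.3%, and 660, or 7.26%). Counts were scaled to 10000 and log-transformed, and 2000 variable genes, 30 principal components and 15 neighbours gave 29 Leiden clusters at resolution 1, without the members and the 57 related genes. Clusters were named from 24 marker sets with a rule that was set after the clusters had been seen. A set needed at least 3 raised markers and at least 3 markers found in at least 50% of cells. It also needed at least 1 marker of the set, or of its classes for a family, among the 10 leading genes. The mean log2 fold of its markers had to be at least 0.3, and the best set gave the family. A class within a family needed a mean of at least 0.75 and at least 50% of its markers raised.

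UMIs were summed per class and library and scaled to CPM, with exact Poisson intervals and exact conditional intervals of the ratio at the 95% level. The kept cells held 109610220 and 97252176 UMIs. Single cells are not replicates and each group has 1 library, so no test was made. The rule was tested on simulated data. Members and lists were chosen with earlier results of these data known. The text names all members, the 3 highest and 3 lowest called genes of the related list per group, their partners, and the 3 genes most like each member by Pearson correlation of log2(CPM + 5), except items that are not reported here. Other scalings, filters, clusterings and weights were tried. Gene positions are from the mm10 annotation of GENCODE and promoters from RefSeq on GRCm38.p6.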

Additional observations from a re-analysis of the deposited data

Results flagged for a closer look

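The following members differed in direction between groups of cells under the same comparison of the libraries, with counting intervals on opposite sides of 0. No test of these differences was possible with 1 library per genotype, so they were not tested. Syp had a log2 ratio, knockout-labelled over wild type, of -0.27 in progenitor-like cells and 0.23 in GABAergic neuron-like cells. Syt4 had a log2 ratio of -0.026 in excitatory neuron-like cells, 0.41 in GABAergic neuron-like cells and 0.15 in progenitor-like cells. The Syp value in progenitor-like cells stands beside the 12 wild-type Tph1 cells and was -0.10 without Tph1 cells. The Syp value in GABAergic neuron-like cells lay between 0.08 and 0.25 over the processing alternatives, and Syp was lower in 1 of the 7 GABAergic clusters. The Syt4 value in excitatory neuron-like cells was 0.03 without cluster 11, and the Syt4 value in GABAergic neuron-like cells was 0.10 without cluster 3.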

How the results depend on the processing

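No paired analysis was possible because each genotype has 1 library and the labels carry no replicate numbers. Over 12 alternatives, of which 3 were chosen after seeing the data, 260 ratios of single members moved by less than their counting error, 21 moved by more and 7 reversed. Snap25 stayed lower in excitatory (-0.19 to -0.11) and GABAergic neuron-like cells (-0.29 to -0.16), and Syt1 higher in excitatory ones (0.16 to 0.26). In excitatory neuron-like cells, 1 member in place of 3 was lower and 2 in place of 1 were higher under median-of-ratios scaling, a total without mitochondrial, haemoglobin and ribosomal protein genes, resolution 2, and equal weights over bins of UMIs. Without the clusters of uneven share 2 were higher. Syt4 there reversed to 0.017 at resolution 2, 0.043 with depth-bin weights and 0.027 without uneven clusters, and Vamp2 to 0.036 with depth-bin weights. In GABAergic neuron-like cells 2 members were lower with doublets kept, at least 2000 UMIs or depth-bin weights and 4 with a mean over cells, and 1 was higher without uneven clusters. In progenitor-like cells 1 member was lower and 3 were higher with doublets kept, 1 was lower without Tph1 cells, and 0 were higher at resolution 2, with depth-bin weights or without uneven clusters. Snap25 there reversed to 0.18 with doublets kept, 0.16 without Tph1 cells and 0.045 without uneven clusters. Without a minimum CPM 2 related genes were higher in excitatory neuron-like cells, and 10 were lower and 4 higher in progenitor-like cells. The causes were not tested. Syn1 and Syt1 in progenitor-like cells were under the 20 CPM minimum, and low counts limit every member in classes of few cells.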

Other observations

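Cajal-Retzius-like cells, with 59 knockout-labelled and 38 wild-type cells, were the class with the most members per cell, at a median of 7 of the 8 in both libraries, and 25.4% and 26.3% of them had a UMI of all 8. Their Syt1 was 253 and 243 CPM, Syp 206 and 194 CPM, Vamp2 284 and 251 CPM, Snap25 173 and 131 CPM, and Syn1 72.2 and 64.2 CPM. Syt4, at 162 and 191 CPM, was the member whose level there was below that of upper-layer excitatory neuron-like cells in both libraries.

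REST, the repressor that binds the element whose left letters are in the Syn1 window, was measured as well. It was 68.3 CPM in knockout-labelled and 67.6 CPM in wild-type radial glia-like cells, 3.81 and 4.88 CPM in intermediate progenitor-like cells, and 9.69 and 8.72 CPM in GABAergic neuron-like cells. No relation between its level and that of any member was tested.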
